A study of Mus musculus with 7 samples.

Results

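The Egr genes (Egr1, Egr2 and Egr3) and the Nr4a genes (Nr4a1, Nr4a2 and Nr4a3) were examined in ATAC-seq peak lists from sorted mouse B-lineage cells. ATAC-seq marks open chromatin, and peaks are the sites with an excess of fragments over background. Fold means the fragment pileup at a peak summit divided by the background of the same library, each with 1 added. The 6 genes were taken from 21938 annotated coding genes, and their regions were all peaks overlapping a gene body plus 20 kb on each side (mm10, GENCODE M21). Peaks of the 7 libraries that touched were merged, which gave 76 regions around the 6 genes of 145247 in all: 14 at Egr1, 4 at Egr2, 12 at Egr3, 24 at Nr4a1, 11 at Nr4a2 and 11 at Nr4a3. The study had 7 groups of 1 library each. WT cells carried floxed Erg alleles (Ergfl/fl) and were sorted as pre-proB, proB and preB cells. Erg KO pre-proB cells (Rag1CreT/+;Ergdelta/delta) lacked Erg, an ETS family transcription factor, through a Cre driven from Rag1, which acts in lymphoid progenitors and thus in T as well as B lineage cells. Rescue cells (Rag1CreT/+;Ergdelta/delta;IgHVH10tar) carried the same deletion and an already rearranged immunoglobulin heavy chain allele, and were titled pre-proB, proB and preB. The WT mice carried neither Cre nor that heavy chain allele. Effects of Cre could therefore not be told apart from loss of Erg. The same held for the heavy chain allele wherever Rescue cells were compared with WT cells. The study gives an age range for its mice as a whole and no age for each library, and the number of mice pooled per library was not stated. Levels are given for WT, then Erg KO, then Rescue, and within a genotype from pre-proB through proB to preB.

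With 1 library per group no test between groups was possible, and every difference below compares single libraries. Titles set the Rescue stages, although the source names of those 3 libraries disagreed with them. The lists held 76465 to 105649 peaks with a background pileup of 3.49 to 4.60 fragments, and the weakest listed summit held 10 to 12 fragments. B lineage marker promoters were open in 4 to 8 of 8 genes per library, and their summed fold was 113 to 134 at the pre-proB stage and 301 to 376 afterwards. Plasmacytoid dendritic cell marker promoters were open in 8 of 8 genes in each pre-proB library, with a summed fold of 398 to 471, against 6 or 7 genes and 177 to 311 later. T cell markers were open in 2 to 6 of 8, NK and innate lymphoid markers in 3 to 6 of 8 and myeloid markers in 3 to 5 of 8, with summed folds of 70.1 to 114, 129 to 172 and 24.4 to 53.3. Of these lists, Cd3e, Themis, Ncr1, Elane and S100a8 had no promoter peak in any library. Other markers of those lists did, in differing orders. Pre-proB libraries were highest at Cd3g (10.5 to 15.01), Cd8a (19.2 to 30.2), Klrb1c (35.2 to 49.7) and Itgam (25.7 to 29.8). Later folds of these were at most 3.6, 6.9, 5.5 and 8.7. Cd5, Gata3, Eomes and Csf1r went the other way. Their folds were 43.2 to 48.1, 51.6 to 63.9, 4.07 to 6.05 and 7.37 to 8.94 in the pre-proB libraries. Later they were 51.7 to 68.9, 80.1 to 110, 8.12 to 15.7 and 12.9 to 22.5. A fold difference between libraries cannot tell fewer open cells from less open chromatin per cell.

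Egr proteins are zinc finger transcription factors and Nr4a proteins are orphan nuclear receptors, and both are known as immediate early products of receptor signalling. Signals through the pre-B cell and B cell receptors switch such genes on within minutes, in part through serum response factor bound at CArG boxes together with ETS family cofactors. Egr proteins bind GC-rich sites and Nr4a proteins bind the NBRE site as monomers. Their activity is restrained by Nab corepressors in the case of Egr proteins. Open chromatin at such genes can precede transcription, so the values here describe accessibility and not expression.

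Regions were searched for 10 motifs within 300 bp around the summit, on both strands. Sequences are shown for 5 windows of 200 bases, read from GRCm38 and printed 5′ to 3′ on the plus strand, with motif matches in capitals. They are the Nr4a1 and Nr4a2 start-site windows with an EGR match (that of Nr4a1 was moved upstream so that it ended before the start site), and 3 distal elements that differed between libraries, picked as examples after their values were seen. The motif searched for EGR was GCGNGGGCG and for E-boxes CANCTG, and the CArG box and EBF1 motifs are given by name.
Egr3 distal, 7.7 kb upstream, chr14:70069391-70069590: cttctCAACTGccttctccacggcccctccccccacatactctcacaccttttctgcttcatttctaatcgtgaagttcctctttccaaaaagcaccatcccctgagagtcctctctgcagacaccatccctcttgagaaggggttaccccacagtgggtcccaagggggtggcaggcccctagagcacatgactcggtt
Nr4a1 second start site, chr15:101266646-101266845: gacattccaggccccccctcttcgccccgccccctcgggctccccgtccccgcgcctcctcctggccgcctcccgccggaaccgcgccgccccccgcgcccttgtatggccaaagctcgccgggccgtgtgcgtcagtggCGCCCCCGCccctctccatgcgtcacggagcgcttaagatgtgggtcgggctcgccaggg
Nr4a1 downstream, 9.1 kb from the second start site, chr15:101275816-101276015: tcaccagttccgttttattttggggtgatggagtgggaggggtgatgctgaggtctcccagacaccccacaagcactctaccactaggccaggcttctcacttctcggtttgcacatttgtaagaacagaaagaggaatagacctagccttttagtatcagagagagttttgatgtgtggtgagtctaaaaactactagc
Nr4a1 upstream, 3.9 kb from the first start site, chr15:101250240-101250439: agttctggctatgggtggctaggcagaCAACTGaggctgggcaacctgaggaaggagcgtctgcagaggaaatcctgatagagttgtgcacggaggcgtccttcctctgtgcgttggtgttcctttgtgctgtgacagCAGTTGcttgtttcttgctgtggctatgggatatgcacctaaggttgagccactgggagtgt
Nr4a2 start site, chr2:57124065-57124264: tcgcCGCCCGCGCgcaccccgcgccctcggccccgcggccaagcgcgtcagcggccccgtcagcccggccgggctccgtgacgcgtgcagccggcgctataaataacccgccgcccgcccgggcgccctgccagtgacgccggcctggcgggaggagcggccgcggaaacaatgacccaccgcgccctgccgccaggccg

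The EGR match of the Nr4a1 window began at base 141 and that of the Nr4a2 window at base 5. Of the 76 regions, 4 held a CArG box (5.26%) against 1.45% of all 145247 regions, and 6 held an EGR motif (7.89%) against 1.64%. AP-1 motifs (TGANTCA) were in 11 regions (14.5% against 9.34%), ETS motifs (CCGGAAG) in 4 (5.26% against 3.47%), PU.1 motifs (GAGGAAGT) in 4 (5.26% against 8.52%), RUNX motifs (TGTGGTT) in 8 (10.5% against 13.5%), E-boxes in 42 (55.3% against 65.1%) and EBF1 motifs in 2 (2.63% against 1.9%). The CRE (TGACGTCA) and the NBRE (AAAGGTCA) were in 0 of the 76 windows, against 0.662% and 1.22% of all. A match is only a run of letters, none of these motifs contains another, and the GC-rich start sites among the 76 share their base composition.

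Accessibility at the 6 genes was present at every stage and in every genotype, while folds at the Nr4a1 and Nr4a2 start sites and at several distal regions differed between libraries. All 6 genes had a promoter peak in all 7 libraries, where 61.4% to 65.5% of all coding genes had one. Of the 76 regions, 33 (43.4%) had a peak in all 7 libraries, against 32.0% of all regions, and 10 (13.2%) had one in a single library, against 17.8% of all. The 33 shared regions reached a median highest fold over background of 33.0, and the 43 others 4.95. By position, 12 regions lay within 1000 bp of a start site of the 6 genes, 6 at another gene's start site and 58 at neither. Regions with a peak numbered 51, 58 and 53 at the successive WT stages, 49 in Erg KO and 54, 60 and 55 at the Rescue stages.

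**Figure D1:**
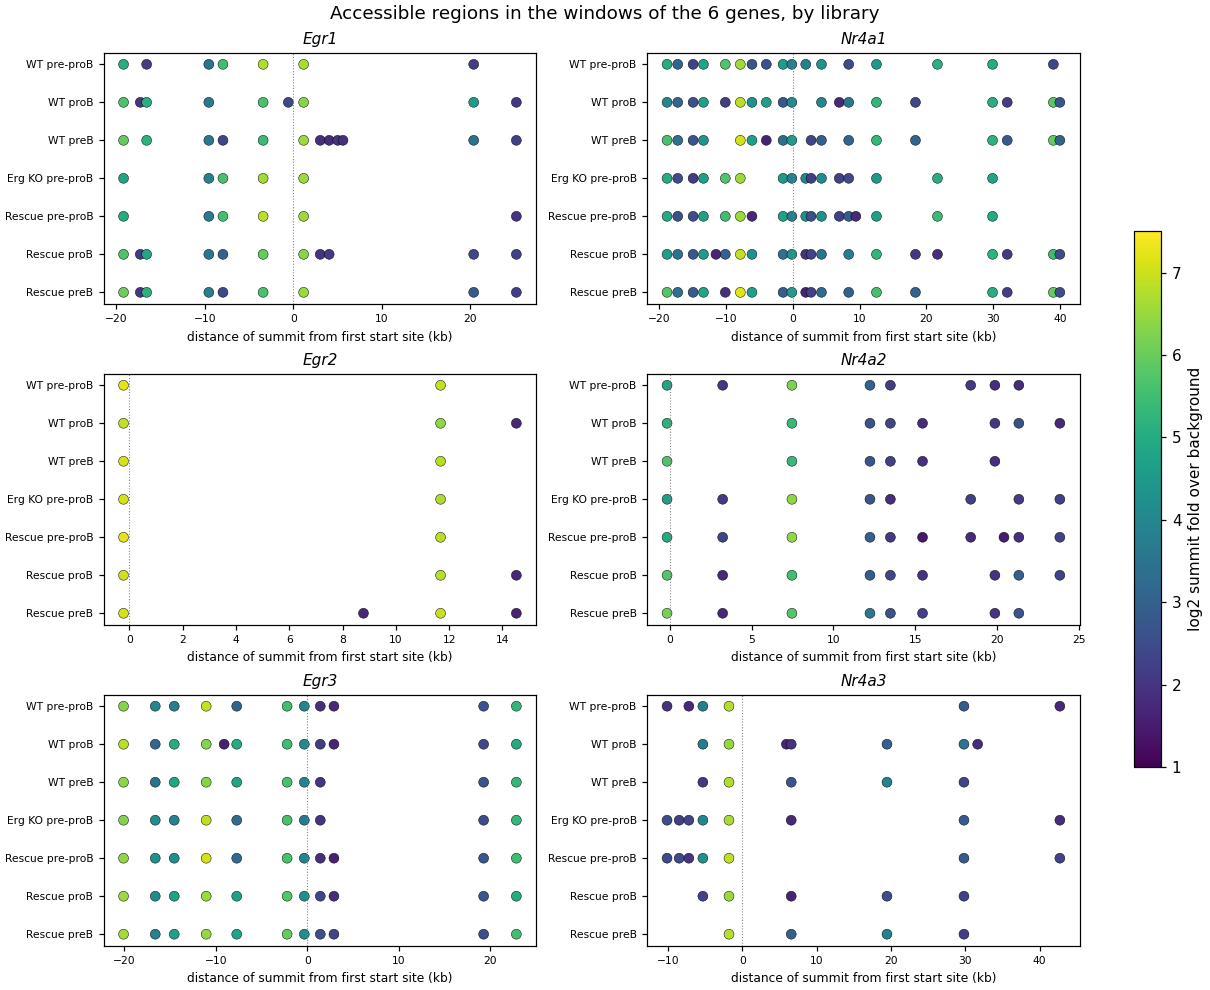
Positions of the merged regions (x axis, kb from each gene's first start site, negative upstream) in each of the 7 libraries (y axis), coloured by log2 fold of the highest summit over background. Points missing from a line had no peak in that library. Egr3 kept most of its regions in every library and Egr2 kept 2 of 4. At Egr1, Nr4a1, Nr4a2 and Nr4a3 most regions were present in some libraries only.

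Egr1 encodes the founding member of the Egr family and is among the first genes switched on after receptor stimulation. It lies on chromosome 18 at 34859823 to 34864984, plus strand. Its start-site region, whose highest summit was 1166 bp into the gene, had a fold over background of 99.6, 79.8 and 94.9 at the successive WT stages, 91.6 in Erg KO and 93.3, 80.9 and 92.0 at the Rescue stages. The highest was 1.25 times the lowest, and the pre-proB and later libraries overlapped. An intergenic element 3.4 kb upstream had folds of 106, 49.5, 42.3, 95.8, 113, 61.5 and 49.3 in the same order, so that all 3 pre-proB libraries stood above all 4 later ones. With the mean of the peaks in that region in place of the highest, the log2 difference of WT proB minus WT pre-proB turned from -1.03 to 0.28.

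A second element 7.9 kb upstream of Egr1 was highest in the same 3 libraries. Its folds were 45.4, 48.6 and 47.4 in the WT, Erg KO and Rescue pre-proB libraries. It had no peak in WT proB, a fold of 5.0 in WT preB, and folds of 8.5 and 5.4 at the later Rescue stages. An element 16.6 kb upstream, within an intron of the neighbour Reep2, showed the opposite order. Its folds were 4.5, 34.3 and 37.0 along the WT stages and 29.4 and 36.3 in Rescue proB and preB cells, with no peak in Erg KO or Rescue pre-proB. The promoter of Reep2 itself, 19.2 kb upstream, was lower in the pre-proB libraries (29.0 to 33.9) than in later ones (51.0 to 66.8), without overlap. An intergenic element 19.0 kb downstream had folds of 4.7, 23.6 and 11.2 along the WT stages and 5.1 and 7.2 in Rescue proB and preB cells, and no peak in the other pre-proB libraries. By contrast the element 9.5 kb upstream stayed within 11.2 and 13.9 in all 7.

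Egr2, which encodes a factor that restrains lymphocyte activation, had the fewest regions. It lies on chromosome 10 at 67535475 to 67542188, plus strand. Its start-site region had folds of 152, 117 and 136 at the successive WT stages, 135 in Erg KO and 152, 131 and 132 at the Rescue stages. In each library this was the highest fold of the start-site regions of the 6 genes, and its 95% counting interval did not overlap that of any other. The only other region open in all 7 libraries was the promoter of the neighbouring gene Ado, 10.9 kb downstream, with folds of 117, 84.6, 109, 104, 113, 110 and 124.

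Egr3 encodes another zinc finger factor of the family, induced with Egr2 by antigen receptor signals. It lies on chromosome 14 at 70077203 to 70082614, plus strand, and 10 of its 12 regions were open in all 7 libraries. The region over its start site was modest, at 15.3, 16.6 and 14.7 at the successive WT stages, 12.5 in Erg KO and 14.8, 18.7 and 17.7 at the Rescue stages. Higher folds lay further upstream, at 2.2 kb (43.6 to 61.5), at 11.1 kb (78.0 to 133) and at 20.1 kb in an intron of Pebp4 (76.6 to 112). At 11.1 kb the pre-proB libraries had folds of 122 (WT), 116 (Erg KO) and 133 (Rescue), and the later ones 78.8 and 78.0 (WT proB and preB) and 91.8 and 89.1 (the Rescue counterparts). The stages did not overlap there.

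Other upstream elements of Egr3 were higher in later cells. At 7.7 kb the WT, Erg KO and Rescue pre-proB folds were 8.5, 9.7 and 9.3, against 32.1 and 28.5 in WT proB and preB and 26.5 and 27.6 in the Rescue counterparts. At 14.6 kb they were 13.6, 14.5 and 17.9 in the pre-proB libraries and 33.0, 28.9, 27.6 and 26.4 in the later ones, and the highest summit lay up to 548 bp apart between libraries. The most downstream region covered the promoter of Bin3 and held a further peak inside that gene, with folds of 40.1 and 43.8 in WT and Rescue pre-proB, against 6.1 and 8.8 in WT proB and preB and 12.03 and 16.9 in the Rescue counterparts. In Erg KO pre-proB the peak caller joined both into a single peak of fold 40.5.

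**Figure D2:**
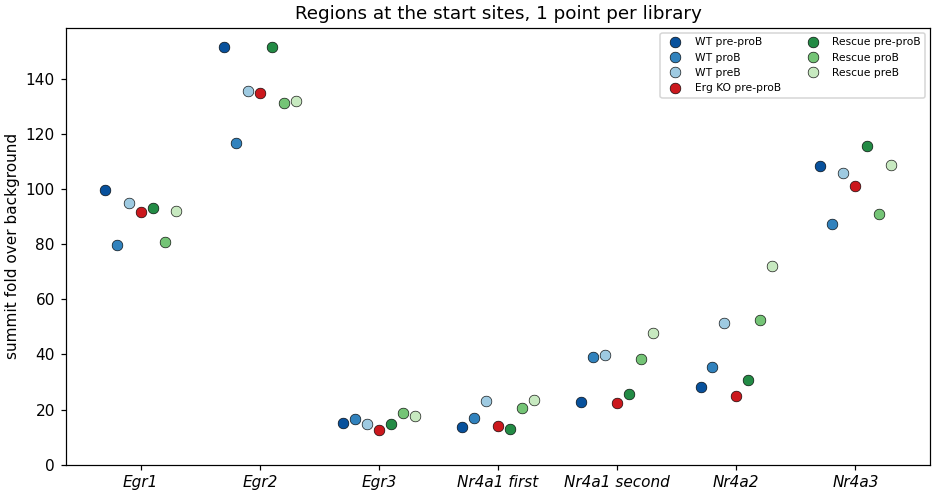
Fold over background of the highest summit (y axis, from 0) in the start-site region of each gene, with both start sites of Nr4a1, 1 point per library and no error bars. Egr1, Egr2 and Nr4a3 sat between 79.8 and 152 in every library, and Nr4a1 second and Nr4a2 were lower in the 3 pre-proB libraries than in the later ones. The Nr4a3 point of WT proB (87.5) is a separate peak upstream of the start site, where the fold was 32.7.

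Nr4a1 encodes the receptor also known as Nur77, a widely used reporter of antigen receptor signalling. It lies on chromosome 15 at 101254269 to 101274795, plus strand, and has annotated start sites at 101254269 and 101266846. At the first start site the folds were 13.6, 17.0 and 23.2 at the successive WT stages, 14.1 in Erg KO and 13.0, 20.5 and 23.3 at the Rescue stages. At the second, whose EGR motif is printed above, they were 22.7, 39.1, 39.9, 22.4, 25.7, 38.3 and 47.7. At both start sites the 3 pre-proB libraries stood below all 4 later ones. The strongest element of the locus lay 7.8 kb upstream of the first start site, with folds of 94.6, 115, 136, 94.2, 93.3, 121 and 147, again without overlap between the stages.

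A further group of Nr4a1 elements was open mainly in pre-proB cells. The element 10.1 kb upstream had folds of 52.7 in WT, 52.2 in Erg KO and 46.3 in Rescue pre-proB cells, against 4.6 in WT proB, no peak in WT preB, and 8.0 and 3.7 at the later Rescue stages. The element 9.1 kb beyond the second start site lay between Nr4a1 and Atg101, 8356 bp from the start site of Atg101. Its folds were 34.9, 33.0 and 42.2 in the WT, Erg KO and Rescue pre-proB libraries. It had a fold of 3.6 in Rescue proB and no peak in the other later libraries. Elements 1.4 kb upstream (22.9 to 26.8 in pre-proB, 6.8 to 10.5 later) and 2.0 kb inside the gene (14.2 to 18.05 in pre-proB, 3.8 and 3.1 in Rescue proB and preB, none in WT proB or preB) followed the same order. Most plasmacytoid dendritic marker promoters moved with these 4 elements, and fewer of the other lists did. Counting a missing peak as 0, every pre-proB fold exceeded every later one at 7 of 8 plasmacytoid dendritic, 3 of 8 NK and innate lymphoid, 2 of 8 T cell, 2 of 8 myeloid and 0 of 8 B lineage markers, against 20.6% of the coding gene promoters open in any library. The reverse held at 1, 2, 1, 1 and 7 of 8 in the same order, against 26.1%. Among the plasmacytoid dendritic markers Siglech had folds of 101 to 113 in the pre-proB libraries and 18.6 to 54.5 later, whereas Spib had 48.1 to 55.9 and then 83.3 to 174. The study's gates for all 3 populations took cells negative for the NK marker NK1.1 and the dendritic marker CD11c, and the part of other cell types in the sorted cells was not tested.

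Elements of Nr4a1 that were higher in later cells included the one 6.1 kb upstream, at 6.6, 19.8 and 26.5 along the WT stages and 3.2, 18.9 and 25.4 along the Rescue stages, with no peak in Erg KO pre-proB. The promoter of 6030408B16Rik, 26.4 kb beyond the second start site, had folds of 5.4, 56.1 and 62.9 in WT pre-proB, proB and preB and 43.7 and 61.1 in Rescue proB and preB, and no peak in Erg KO or Rescue pre-proB. An element 18.8 kb upstream, 11323 bp from the nearer start site of Grasp, followed neither order. Its folds were 32.0, 16.4 and 49.1 at the successive WT stages, 31.7 in Erg KO and 30.2, 25.2 and 54.5 at the Rescue stages, so preB cells were highest in both genotypes and proB cells lowest.

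Nr4a2 encodes the receptor also known as Nurr1. It lies on chromosome 2 at 57106830 to 57124003, minus strand. Its start-site region had folds of 28.1, 35.4 and 51.3 at the successive WT stages, 25.1 in Erg KO and 30.9, 52.6 and 72.2 at the Rescue stages. Folds were higher at each successive stage in both WT and Rescue cells. A wide region inside the gene, over a further annotated start site, had the opposite order, with folds of 74.1, 40.6, 41.2, 84.1, 85.2, 45.9 and 53.8. Its highest summit lay up to 1714 bp apart between libraries, so these folds do not all belong to the same stretch.

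Nr4a3, which encodes the receptor NOR-1, lies on chromosome 4 at 48045153 to 48086447, plus strand. Its start-site region had folds of 108, 87.5 and 106 at the successive WT stages, 101 in Erg KO and 116, 90.9 and 109 at the Rescue stages, and the stages overlapped. In WT proB the value of 87.5 belonged to a separate peak that ended upstream of the start site, and the peak over the start site itself had a fold of 32.7, whereas in each of the other 6 libraries a single peak spanned both. Its highest summit lay 1790 bp upstream of the start site and shifted by up to 357 bp between libraries. An element 5.3 kb upstream had folds of 13.8, 13.1 and 4.2 in WT pre-proB, proB and preB, 16.5 in Erg KO, and 18.8, 4.9 and no peak along the Rescue stages. An intronic element 19.5 kb into the gene was open only in the later libraries, at 7.8 and 14.5 in WT proB and preB and 5.8 and 14.2 in the Rescue counterparts. In both genotypes preB cells had the higher value there.

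**Figure D3:**
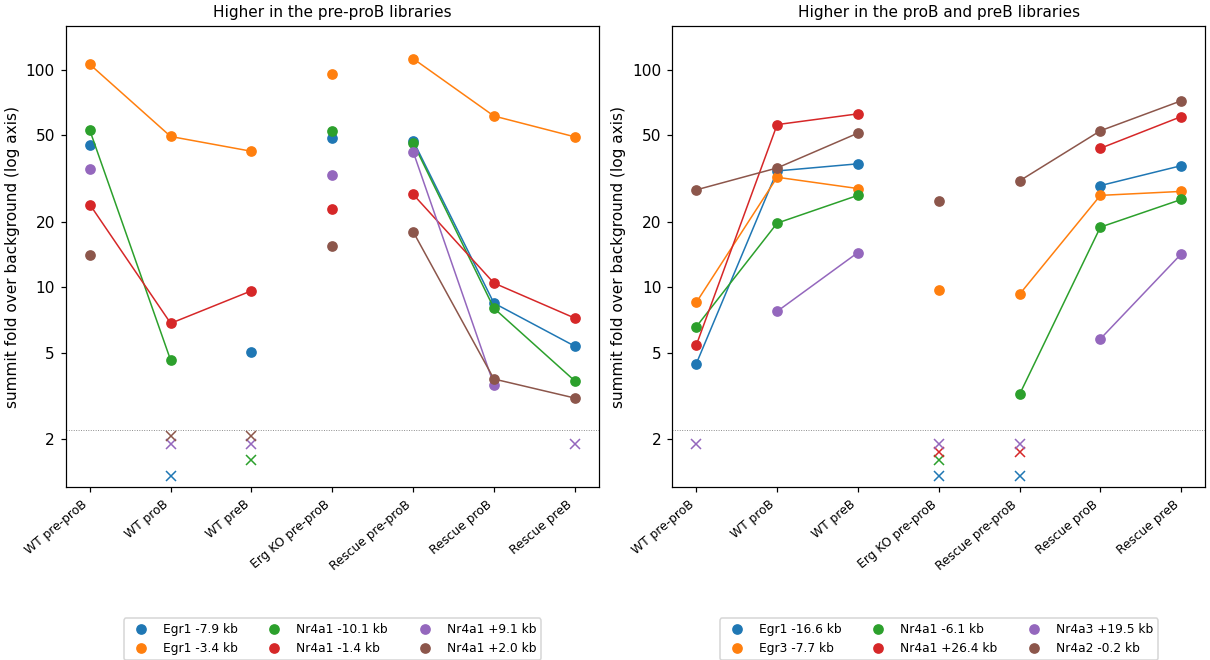
Fold over background (log axis) in each library for 6 elements higher in pre-proB cells (left) and 6 higher in proB and preB cells (right), named by gene and by distance in kb from the nearest start site of that gene. Lines join the stages of 1 genotype, and crosses under the dotted line mark libraries with no peak. Erg KO and Rescue pre-proB points sit beside WT pre-proB on the left, from 14.2 to 113.

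The first question was whether loss of Erg altered the openness of these genes in pre-proB cells. Of 44 shared regions, 0 were at least 2-fold higher in Erg KO than in WT pre-proB cells (0.185% of all shared regions were) and 0 were at least 2-fold lower (0.332% of all). Log2 differences, centred on the median of all shared regions, ran from -0.64 at the Nr4a1 element 17.2 kb upstream to 0.54 at the Nr4a3 element 10.1 kb upstream. At the Egr2 start site the difference was -0.22 (95% counting interval -0.37 to -0.08) and at the Egr1 start site -0.18 (-0.36 to 0.00). These intervals cover counting error only, since they come from the fragments at 1 summit in 1 library each.

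Presence of a peak differed at 12 regions in this comparison. Of the 51 regions of WT pre-proB, 7 (13.7%, 95% Wilson interval 6.81 to 25.7) had no peak in Erg KO pre-proB, against 6.38% of all regions. When each list was cut to its strongest peaks, 1 in 2 of the shortest list, the count was 1 of 28 (3.57%), against 5.75% of all, so the share no longer stood above that of all regions. The 7 were weak in WT pre-proB, with folds of 3.30 to 6.59, and 5 of them were at least 2 times higher in WT proB: the Egr1 elements at 16.6 kb upstream and 19.0 kb downstream, the Nr4a1 elements at 6.1 and 3.9 kb upstream, and the promoter of 6030408B16Rik. In the other direction 5 of 49 regions of Erg KO pre-proB (10.2%, 4.44 to 21.8) had no peak in WT pre-proB, against 13.2% of all, with folds of 3.30 to 4.76. With the shorter lists this was also 1 of 28, against 6.06%. B lineage marker promoters moved with these 7 regions, since 7 of 8 were open in WT pre-proB and 4 of 8 in Erg KO pre-proB, where Cd79a (11.4 in WT pre-proB), Pax5 (3.7) and Vpreb1 (8.5) had no peak, and their part in this result was not tested.

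The second question was how the genes differed along normal development. From WT pre-proB to WT proB, 8 of 51 regions had no peak later (15.7%, 8.17 to 28.0), below the 34.4% of all regions and with that share outside the interval. With lists of equal length the share was 7.5%, against 33.8% of all, but with 50% reciprocal overlap required of peaks it was 46.6%, against 47.1%. Conversely 15 of 58 regions of WT proB had no peak in WT pre-proB (25.9%, 16.3 to 38.4), against 31.9% of all, and these were weak, with folds of 2.95 to 7.75. Under reciprocal overlap that share was 50.8%, against 44.8%. Of 43 shared regions, 8 were at least 2-fold higher in WT proB (14.8% of all shared regions were) and 3 at least 2-fold lower (15% of all). The largest centred log2 differences were 3.44 (2.92 to 4.11) at the 6030408B16Rik promoter and -3.44 (-4.16 to -2.89) at the Nr4a1 element 10.1 kb upstream, about equal in size and opposite in sign within the same locus.

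From WT proB to WT preB, peaks were lacking later at 11 of 58 regions (18.97%, 10.9 to 30.9), against 26.5% of all, and 6 of 53 regions of WT preB had none in WT proB (11.3%, 5.29 to 22.6), against 10.6%. The first share was 8.16% with lists of equal length (18.7% of all) and 34.9% with reciprocal overlap (34.2%), under which the other was 33.9% (21.1%). Among 47 shared regions, 1 was at least 2-fold higher in WT preB (4.46% of all were), the Nr4a1 element 18.8 kb upstream, with a log2 difference of 1.52 (1.17 to 1.91). At least 2-fold lower were 5 (9.34% of all): the Egr1 element 19.0 kb downstream, the Nr4a1 elements 3.9 kb upstream and 4.3 kb inside the gene, and the Nr4a3 elements 5.3 kb upstream and 29.8 kb inside the gene. Folds at the last were 11.1 in WT proB and 5.3 in WT preB.

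**Figure D4:**
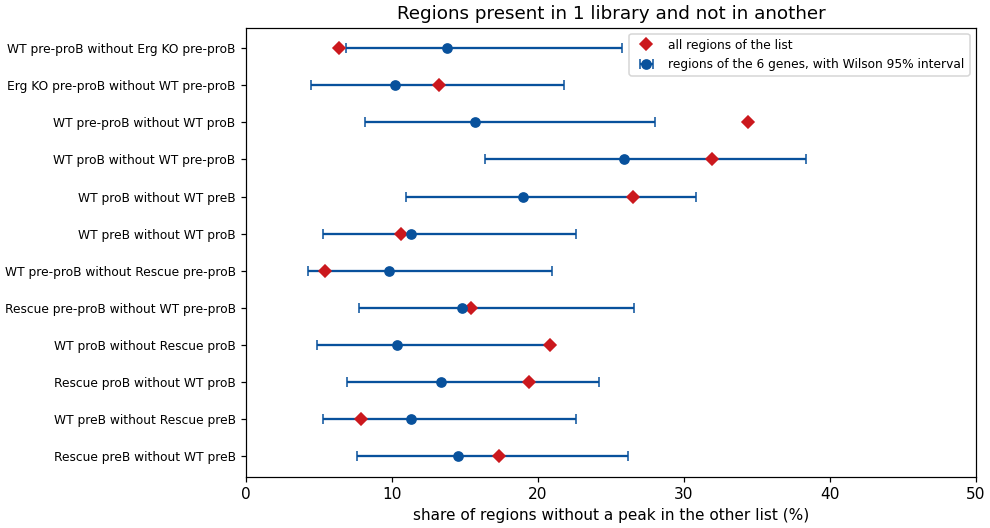
Share of regions in 1 library without a peak in another (x axis, percent), for the regions of the 6 genes (circles, bars are Wilson 95% intervals for counting error) and for all regions of the list (diamonds). The circle for WT pre-proB without WT proB, at 15.7%, sits below its diamond at 34.4%, and that for WT pre-proB without Erg KO pre-proB, at 13.7%, above its diamond at 6.38%.

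The third question was how Rescue cells compared with WT cells of the same titled stage. In pre-proB cells 5 of 51 WT regions had no peak in Rescue (9.80%, 4.26 to 20.98, against 5.39% of all), and 8 of 54 Rescue regions none in WT (14.8%, 7.70 to 26.6, against 15.4%). With lists of 1 in 2 of the shortest these were 1 of 28 (3.57%, against 5.59%) and 0 of 27 (against 6.12%). Of 46 shared regions 0 were at least 2-fold higher in Rescue (0.196% of all) and 1 was at least 2-fold lower (0.471% of all), the Nr4a1 element 6.1 kb upstream. All 5 regions without a peak in Rescue pre-proB were among the 7 without one in Erg KO pre-proB. Both comparisons share the WT pre-proB library, so this overlap is no separate evidence. Erg KO and Rescue pre-proB cells differed by the heavy chain allele. Of their 48 shared regions, 0 were at least 2-fold higher in Rescue pre-proB (0.0589% of all). At least 2-fold lower in Rescue pre-proB were 0 (0.0906% of all).

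In proB cells 6 of 58 WT regions had no peak in Rescue (10.3%, 4.83 to 20.8, against 20.8% of all) and 8 of 60 Rescue regions none in WT (13.3%, 6.91 to 24.2, against 19.4%). The first share was 27.6% with the Rescue stages taken from the source names (31.2% of all) and 23.8% with reciprocal overlap (28.6%), and the second 30.4% with reciprocal overlap (28.4%). Among 52 shared regions 0 were at least 2-fold higher in Rescue proB (5.19% of all) and 3 at least 2-fold lower (6.67% of all). The Egr1 element 19.0 kb downstream was lower by 2.22 on the log2 scale, with a fold of 23.6 in WT and 5.1 in Rescue proB. The Nr4a3 elements at 5.3 kb upstream (13.1 and 4.9) and 29.8 kb inside the gene (11.1 and 4.7) were the others. In preB cells 6 of 53 WT regions had no peak in Rescue (11.3%, 5.29 to 22.6, against 7.87%) and 8 of 55 Rescue regions none in WT (14.5%, 7.56 to 26.2, against 17.3%). The first was 24.2% with reciprocal overlap (14.7% of all), and the second 3.45% with lists of 1 in 2 of the shortest (9.59%). Of 47 shared regions 0 were at least 2-fold higher (2.2% of all) or lower (1.26% of all) in Rescue preB.

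The 7 libraries were also read together, with patterns chosen after the values were seen, so the counts describe and support nothing. Regions open in all 3 WT libraries numbered 40. Of these, 5 had no peak in Erg KO and Rescue pre-proB (3.79% of all such regions), and 1 had no peak in any of the 4 Erg-deficient libraries (0.397% of all). That region was the Nr4a1 element 3.9 kb upstream, and the sequence printed above shows 2 of the 4 E-boxes in its search window. It had folds of 6.0, 24.6 and 3.1 along the WT stages. Its value was thus high in 1 library only.

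The libraries were then divided by stage alone. Of 33 regions open in all 7 libraries, every pre-proB fold exceeded every later one at 5 (29.4% of all) and every later fold exceeded every pre-proB one at 12 (23.5% of all), and at 16 they overlapped. Among 44 regions open in the 3 pre-proB libraries, 4 had no peak later (19.9% of all) and 9 were at least 2 times higher than in any later library (33.3% of all), counting a missing peak as lower. Among 45 regions open in the 4 later libraries, 4 had no peak in pre-proB cells (12.9% of all) and 8 were at least 2 times higher than in any pre-proB library (18.9% of all). E-boxes were in 6 of the 9 and in 7 of the 8, against 65.1% of all regions. RUNX motifs were in 3 of the 9 and in 1 of the 8, against 13.5%. AP-1 motifs were in 2 and 1 (9.34% of all) and PU.1 motifs in 1 and 0 (8.52%). The other motifs searched were in 0 of both sets.

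A list of 29 other early response genes, among them Egr4, Nab and Srf family genes, Fos and Jun family genes and Dusp phosphatases, was open at nearly every promoter. Per library, 61.4% to 65.5% of all coding genes had a promoter peak. In this list it was present in 28 of 29 genes in WT pre-proB and Erg KO pre-proB and in 29 of 29 in the other 5 libraries. Egr4, the remaining family member, was the gene that lacked it, with folds of 9.97 and 4.8 in WT proB and preB and of 3.6, 5.3 and 4.3 along the Rescue stages.

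Genes on other chromosomes with the most similar summed fold over the 7 libraries were found for each member, by Euclidean distance in centred log2 units over gene body plus 20 kb. They were Grk6 (0.16), Galk1 (0.19) and Unk (0.19) for Egr1, Pcbp2 (0.17), Daxx (0.18) and Mettl15 (0.19) for Egr2, and Gpcpd1 (0.19), C2cd2 (0.20) and Ube2d3 (0.20) for Egr3. For Nr4a1 they were Arhgap25 (0.12), Top1 (0.14) and Ciita (0.17), for Nr4a2 Kdm4c (0.17), Ythdf3 (0.21) and Taf7 (0.21), and for Nr4a3 Leo1 (0.14), Ppp2r1b (0.27) and Uros (0.28). All comparisons used the same 7 libraries.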

How the data were processed

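ATAC-seq was analysed in 7 libraries of sorted mouse cells, 1 per group. According to the submitters' processing notes, CASAVA 1.8.2, Bowtie2, Picard and MACS2 were used with mm10, and aligner and peak caller versions were not stated. The methods name sonication where the label protocol names Tn5, and neither the read shift nor duplicate handling is stated, which affects peak width and number. The deposited score equalled 10 × −log10 q without its decimals. The fold the authors deposited was a ratio of summit pileup plus 1 to background pileup plus 1. The −log10 p and −log10 q values deposited by the authors, and the summit offsets, described single peaks. Read totals were not used here, and 100% of the folds checked were whole multiples of 1 step (within 0.02), which gave the background pileup. The highest folds were left out of that check.

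Peaks overlapping by 1 bp or more were merged with Python 3.11.15 and pandas 2.3.3, and reciprocal overlap over all peaks was taken with bedtools 2.31.1. A region's value is its highest fold in a library. Differences were centred on the median of shared regions and called at 2-fold. Intervals were exact Poisson or Wilson (95%, counting error only). Genes came from GENCODE M21 and sequence from GRCm38. The named regions and genes were the members, their start sites, the highest other regions, regions with a peak in some libraries only and a fold of 5 or more, or past 2-fold, and genes most alike in pattern. The code was tested on simulated peak lists. Members and lists were chosen with earlier results of these data known. Alternatives were lists of equal length, shorter lists, 50% reciprocal overlap, summit overlap, flanks of 10 and 50 kb, promoter windows of 2500 bp, no centring, mean fold and stage by source name. The deletion of Erg was not checked here.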

Additional observations from a re-analysis of the deposited data

Results flagged for a closer look

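The promoter of Ado, 10.9 kb downstream of Egr2, moved in opposite directions from pre-proB to proB cells in the 2 genotypes. Its centred log2 difference was -0.40 in WT (fold 117 to 84.6) and 0.25 in Rescue (fold 113 to 110). In Rescue the raw fold was nearly level, and the sign came from centring, since the median of all shared regions was lower in Rescue proB by 0.30. With 1 library per stage and genotype the difference was not tested.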

How the results depend on the processing

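No paired analysis was possible because each group had 1 library. Of 78 recomputed shares, 63 stayed inside the counting interval and 15 did not. All 24 shares under flanks of 10 or 50 kb and all 12 under summit overlap stayed. With lists cut to 1 in 2 of the shortest, the share was 3.57% for WT pre-proB without Erg KO pre-proB, for the reverse, and for WT pre-proB without Rescue pre-proB, 0% (0 of 27) for Rescue pre-proB without WT, and 3.45% for Rescue preB without WT preB. With lists of equal length, WT pre-proB without WT proB became 7.5% and WT proB without WT preB 8.16%. With 50% reciprocal overlap of peaks, shares were 46.6% and 50.8% between WT pre-proB and WT proB, 34.9% and 33.9% between WT proB and WT preB, 23.8% and 30.4% between WT proB and Rescue proB, and 24.2% for WT preB without Rescue preB. By source name, WT proB without Rescue proB became 27.6%.

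The promoter counts of the 6 genes were the same, except that in Erg KO pre-proB 5 of the 6 genes were open at the promoter with lists of 1 in 2 of the shortest. Those of the early response list were recounted only with promoter windows of 2500 bp, and were the same. Of 42 recomputed log2 differences, 41 kept their direction and stayed past 2-fold. The exception was the Egr1 element 3.4 kb upstream, whose WT proB minus WT pre-proB difference of -1.03 became 0.28 with the mean of the peaks in the region, as WT pre-proB held 3 peaks there and WT proB 1. A peak needed 10 to 12 fragments at its summit, so a missing peak is not closed chromatin.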
